A study of Rattus norvegicus with 70 samples.

Results

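The keratins and the claudins were followed as 2 gene families through 3 fat depots of Sprague-Dawley rats, namely brown fat (BAT), the subcutaneous depot (SAT) and the visceral depot (VAT). Members were taken by name, as genes whose rat symbol is Krt or Cldn followed by a number, and 63 of the 15319 genes in the count tables qualified, 43 keratins and 20 claudins. The libraries came from 24 adolescent rats, 28 days old on arrival and given 8 days to acclimate. From day 39 of life for males and day 42 for females, each rat spent 4 h daily for 28 days in a nose-only inhalation system. PCB 52 rats breathed air drawn over glass beads coated with PCB 52, a chlorinated biphenyl, and sham rats were the unexposed controls. The labels name no allele in either treatment. Each library is bulk RNA from a piece of one depot, and the labels put it in a group by depot, sex and treatment, so PCB 52 and sham are each split into male and female groups of BAT, SAT and VAT. Of the 12 groups, 10 held 6 libraries, and male VAT PCB 52 and female SAT sham held 5. Each replicate is an animal, so the p-values below measure the spread between animals. The main fits of the depot comparisons did not pair libraries of the same rat. Fits with the rat as a block were an alternative.

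Keratins build the intermediate filaments of epithelial cells, and a type I keratin always pairs with a type II keratin. Simple epithelia and mesothelium use Krt8, Krt18 and Krt19, the basal layer of skin and the myoepithelium of glands use Krt5, Krt14, Krt15 and Krt17, the upper layers of epidermis use Krt1 and Krt10, and hair follicles use a large set of their own. Claudins form the strands of tight junctions, and which claudin is present sets whether the junction seals or lets ions and water through. Adipocytes make neither family in quantity, while the mammary gland lies inside the subcutaneous fat of rats, mesothelium covers visceral fat, and endothelium, with its own claudin, Cldn5, runs through every depot.

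Several members are immediate neighbours in the genome. Krt8 and Krt18, the filament pair of simple epithelium, sit side by side on chromosome 7, Cldn3 and Cldn4 are neighbours on chromosome 12, and the other keratins except Krt80 and Krt6c fall in runs of up to 11 genes on chromosomes 7 and 10. The promoters of Krt8, Krt18, Cldn3 and Cldn15 are shown because these genes carry depot differences that follow. In female sham rats Krt8, Krt18 and Cldn3 were higher in SAT than in VAT and BAT. In male sham rats, with all libraries kept, none of these genes passed the threshold for SAT against VAT. Cldn15 was higher in VAT than in SAT and BAT in sham rats of both sexes. Each promoter is a 300-base window around the annotated start, most of it upstream, from the RefSeq annotation of the GRCr8 assembly. Capitals mark a TATA box (TATAAA), a GC box (GGGCGG) or an AP-1 site (TGANTCA), each searched on both strands. Krt8 is at chr7:135010290-135010589 on the minus strand, Krt18 at chr7:135035918-135036217 on the plus strand, Cldn3 at chr12:27346498-27346797 on the minus strand and Cldn15 at chr12:25343576-25343875 on the minus strand.
Krt8: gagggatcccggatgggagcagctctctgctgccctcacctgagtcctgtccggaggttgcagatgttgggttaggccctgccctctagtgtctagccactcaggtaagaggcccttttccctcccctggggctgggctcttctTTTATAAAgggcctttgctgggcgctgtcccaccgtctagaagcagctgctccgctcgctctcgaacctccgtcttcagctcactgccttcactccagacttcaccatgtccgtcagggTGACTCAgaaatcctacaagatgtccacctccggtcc
Krt18: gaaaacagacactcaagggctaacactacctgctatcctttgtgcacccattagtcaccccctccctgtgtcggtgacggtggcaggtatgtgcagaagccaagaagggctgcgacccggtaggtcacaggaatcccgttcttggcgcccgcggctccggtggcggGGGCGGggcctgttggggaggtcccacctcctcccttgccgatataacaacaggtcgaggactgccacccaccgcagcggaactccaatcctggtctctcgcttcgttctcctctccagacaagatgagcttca
Cldn3: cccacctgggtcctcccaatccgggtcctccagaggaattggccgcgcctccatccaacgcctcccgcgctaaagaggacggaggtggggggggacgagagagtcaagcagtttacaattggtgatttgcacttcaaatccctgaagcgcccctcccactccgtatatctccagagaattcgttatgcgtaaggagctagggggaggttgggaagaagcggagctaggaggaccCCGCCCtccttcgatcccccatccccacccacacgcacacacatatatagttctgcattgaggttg
Cldn15: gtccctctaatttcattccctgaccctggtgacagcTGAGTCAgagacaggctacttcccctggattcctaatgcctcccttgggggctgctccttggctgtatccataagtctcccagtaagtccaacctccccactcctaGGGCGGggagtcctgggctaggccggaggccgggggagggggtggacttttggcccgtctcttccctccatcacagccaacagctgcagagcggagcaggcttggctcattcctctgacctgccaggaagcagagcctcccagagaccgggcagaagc
In Krt8 the capitals hold 2 overlapping TATA boxes, 1 on each strand, and further down an AP-1 site, in Krt18 and Cldn3 a GC box, and in Cldn15 an AP-1 site and a GC box. Promoters were at hand for 33 keratins and 16 claudins. The TATA box was found in 18 keratin promoters (54.5%) and 1 claudin promoter (6.25%), against 14.3% of 27457 promoters of all genes. The GC box was found in 5 keratin promoters (15.2%) and 8 claudin promoters (50%), against 34.9% of all. The AP-1 site was found in 2 keratin promoters (6.06%) and 1 claudin promoter (6.25%), against 7.33% of all. A match is a description of these letters and not a measured site.

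Total counts ran from 4604116 to 9707132 per library, and levels are given as CPM, each gene's count divided by its library's total and scaled alike in all libraries. CPM is not scaled to transcript length, so levels are compared between libraries and never between genes. A count of 3, the limit that a count of 0 allows, corresponds to 0.309 to 0.652 CPM; such limits and the count intervals below cover counting error only. Ucp1, which defines brown fat, was 113.6 CPM in female BAT PCB 52 library 24 and 2892 CPM or higher in every other BAT library. Library 24 also held 53715 CPM of summed skeletal muscle genes, and their part in its values was not tested. In SAT Ucp1 was at most 1.383 CPM. In VAT it was 337.7 and 229.5 CPM in female sham libraries 4 and 8, 12.96 CPM in library 6 and at most 1.287 CPM in the others. Xist and 4 Y-linked genes followed the labelled sex except in male VAT PCB 52 library 13, which listed 0 for all 4 Y-linked genes and for 499 of the 509 X-linked genes, so X-linked Cldn2 is listed at 0 there without being measured. Summed counts of the Y-linked genes reached 27 in female VAT sham, against at most 1 in the other female groups. Female SAT sham library 8 stood apart with 923 genes at 0 that reached 10 counts in each of the other 4 libraries of its group, Cldn6 and the endothelial cadherin Cdh5 among them. Where leaving out either library changed the call of a named member or the share of all genes called, both values are given.

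Most members were close to silent in fat. In BAT, 45 of the 63 never reached 1 CPM in any library, in VAT 31 and in SAT 20, and 13 keratins never reached it anywhere. Only Cldn5 and Cldn12 averaged at least 10 CPM in BAT. In VAT there were 9 such members, the keratins Krt8, Krt18 and Krt19 and the claudins Cldn1, Cldn3, Cldn5, Cldn12, Cldn15 and Cldn23. SAT had 16, the 9 keratins Krt5, Krt8, Krt10, Krt14, Krt15, Krt17, Krt18, Krt19 and Krt23 and the 7 claudins Cldn1, Cldn3, Cldn4, Cldn5, Cldn7, Cldn8 and Cldn12. In VAT the averages of Cldn3 and Cldn23 rested mainly on male libraries 11, 13 and 23. Cldn3 was 170.6, 145.1 and 20.5 CPM there and Cldn23 146.5, 131 and 26.02 CPM. Within VAT, Krt18 was also highest in male libraries 11 and 13, at 92.3 and 73.06 CPM. Over all libraries, 29 members reached 10 CPM at least once, and the heat map of these 29 shows SAT as the depot where most of them are high. In bulk tissue, fewer cells of a type and less RNA per cell cannot be told apart, and this holds for every level below.

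**Figure D1:**
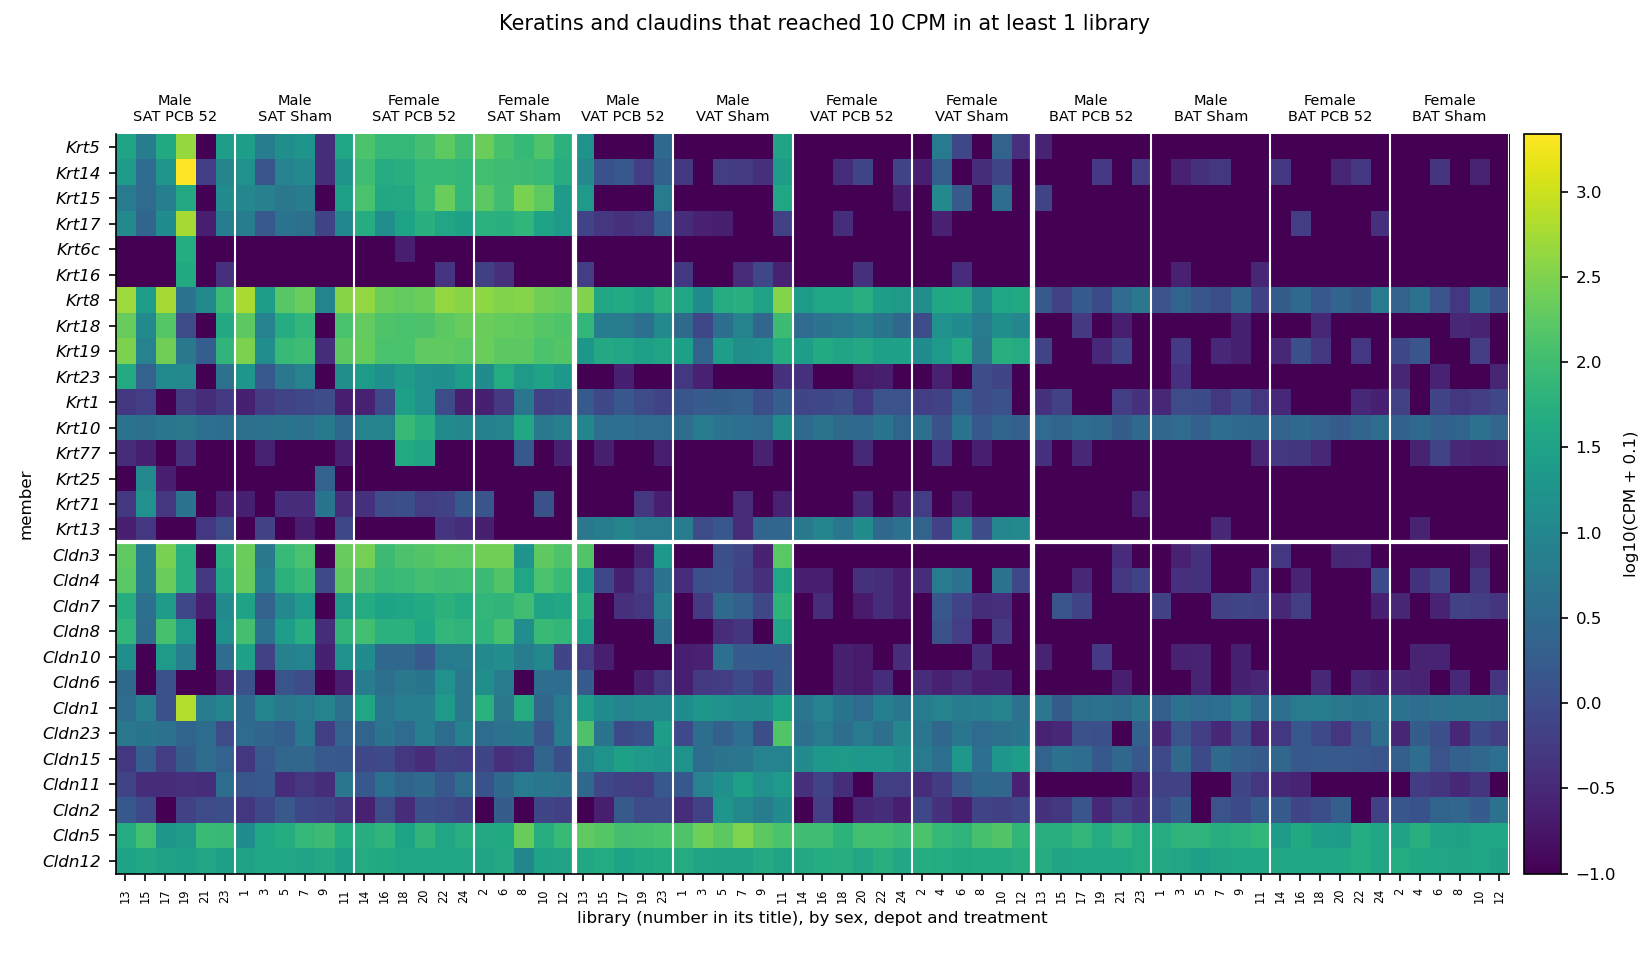
Levels of the 29 members that reached 10 CPM in at least 1 library (rows) in all 70 libraries (columns), as log10(CPM + 0.1). Columns run by depot, sex and treatment, with the animal's number below. Most rows are high in SAT, only Cldn5 and Cldn12 are high throughout BAT, and single columns such as male SAT PCB 52 library 19 and male VAT libraries 13 and 11 break the pattern of their groups.

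The keratins and claudins of simple, secretory epithelium were higher in SAT than in BAT. Among female sham rats, Krt8 was 402.7, 325.5, 358.8, 252.5 and 215 CPM in the 5 SAT libraries, against a lowest, median and highest of 0.4007, 1.759 and 4.252 CPM in BAT. Every SAT library was far above every BAT library, and edgeR's quasi-likelihood test gave a log2 fold change of 7.20 ± 0.55 (SE; Benjamini-Hochberg adjusted p = 3.39e-06). Krt18, its filament partner, was 223, 201.8, 185.8, 156.7 and 138.1 CPM in those SAT libraries, while the 6 BAT libraries held 2 counts in all. That makes SAT 3023-fold higher, with a counting interval of 836.8 to 24960. Krt19, a keratin of simple epithelium that lacks most of the usual tail domain, averaged 169.7 ± 36.36 CPM in SAT (SD, n = 5) and 0.4316 ± 0.5382 CPM in BAT (SD, n = 6), a log2 fold change of 8.43 ± 0.70 (adjusted p = 4.92e-06).

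Sealing claudins went the same way. Cldn3, which tightens the junctions of glandular epithelium, was 251.5, 251.7, 17.45, 181.9 and 137.8 CPM in the female sham SAT libraries, and the 6 BAT libraries held 1 count in all. The low value is library 8, the one with many genes at 0, and even that library exceeded every BAT library. The ratio of the means was 5611, with a counting interval of 1007 to 221613. Its neighbour Cldn4, another barrier claudin, averaged 97.46 ± 41.88 CPM in SAT and 0.2261 ± 0.2796 CPM in BAT (log2 fold change 8.31 ± 0.58, adjusted p = 1.95e-06). Cldn7, found along the sides of epithelial cells, averaged 63.53 ± 27.88 CPM in SAT and 0.3078 ± 0.2269 CPM in BAT (log2 fold change 7.65). Cldn8, a claudin of tight ducts, averaged 72.7 ± 38.5 CPM in SAT with no count in any of the 6 BAT libraries, so it was at least 809-fold higher, taking 3 counts over the BAT group as the floor. The keratin Krt23 had a log2 fold change of 7.79. Krt8, Krt18, Krt19, Krt23 and these claudins were low or at 0 in BAT and passed the low-count filter through SAT. That set their direction, so their calls are a description.

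Basal and myoepithelial keratins formed a second set. Krt14 averaged 86.32 ± 21.39 CPM in female sham SAT and 0.08578 ± 0.1439 CPM in BAT, a log2 fold change of 9.55. Its partner Krt5 was 228.3, 118.9, 80.07, 137.3 and 59.74 CPM in SAT and had no count in BAT, which makes it at least 1390-fold higher. Krt15 and Krt17, which mark basal cells and stressed or follicular epithelium, also had no count in BAT and were at least 1705-fold and at least 536.1-fold higher in SAT. All 4 basal keratins were called, and no SAT library overlapped the BAT range. Being at or near 0 in BAT, they passed the low-count filter through SAT, which fixed their direction, so the calls are a description.

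Across the family, 19 members passed the low-count filter in female SAT against BAT, which the SAT values themselves largely decided, and 17 were called at an adjusted p under 0.05, 15 higher (21.8% of all genes were) and 2 lower (16.5%). The background was 38.3% of all 11360 genes tested, against 89.5% of these members, and the members' median log2 fold change was 7.79 against 0.14 over all genes. Without SAT library 8 the background was 57.9%, and 18 of 20 members tested were called (90%). Of the higher calls, Cldn23 had a log2 fold change of 2.26, and the epidermal keratin Krt10 (2.56, adjusted p = 0.013) and Cldn1 (2.58, adjusted p = 0.0263), the claudin that seals the epidermis, were weaker. Library 8 carried part of both, since Krt10 was 37.74 CPM there and 5.369 to 8.451 CPM in the other 4 SAT libraries, and leaving it out lowered Krt10 to 1.04 and Cldn1 to 1.70, with Cldn1 no longer called (adjusted p = 0.0598). Cldn1 also lost its call without BAT library 2, 4 or 12 or SAT library 2. With the rat as a block 12 of 18 members tested were called against a background of 27%, Cldn23 missed the filter and has no value, and Krt10 was 1.67 (adjusted p = 0.109) and Cldn1 1.21 (adjusted p = 0.363). The lower calls, Cldn15 (-1.54, adjusted p = 0.0334) and Cldn2 (-2.12, adjusted p = 0.0437), both claudins that form pores, had adjusted p of 0.0593 and 0.0668 with the block, and single libraries decided both. Cldn15 lost its call without BAT library 4, 8, 10 or 12 or SAT library 2, 6 or 12, and Cldn2 without BAT library 2 or SAT library 2, 10 or 12.

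**Figure D2:**
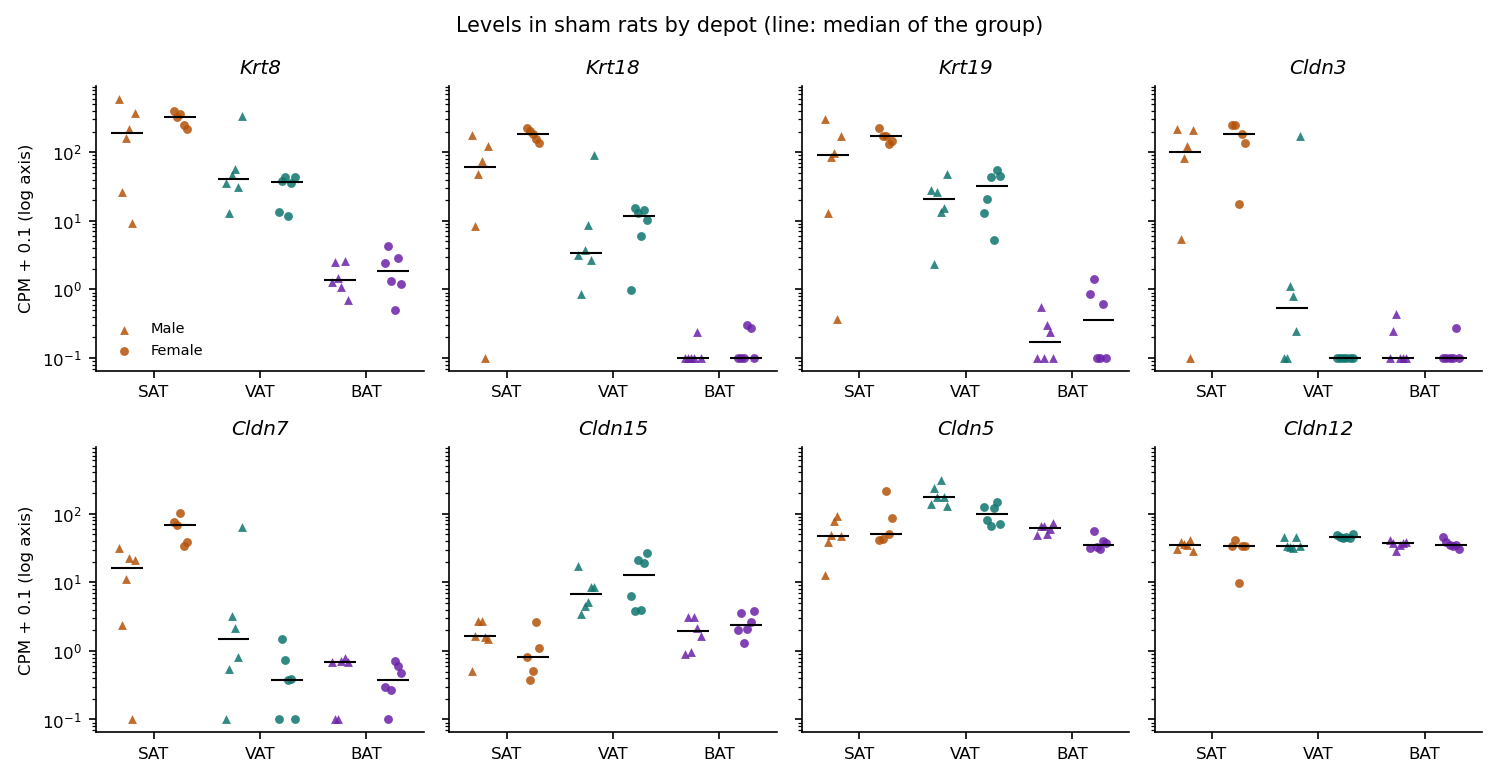
CPM + 0.1 (log axis) of 8 members in sham libraries of SAT, VAT and BAT, with triangles for males, circles for females and a line at the median of each depot and sex. Krt8, Krt18, Krt19, Cldn3 and Cldn7 are high in SAT, Cldn15 is high in VAT, Cldn5 and Cldn12 lie high in every depot, and some male SAT libraries lie far below the others.

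Partner genes that these families work with moved in the same comparison. Among female sham rats in SAT against BAT, 18 of 18 tested genes of epithelial identity and adhesion were higher, with a median log2 fold change of 6.41, led by the mammary factor Elf5 (7.96) and the adhesion molecule Epcam (12.56). All 10 milk protein genes tested were higher, with a median of 13.88, but they summed to at most 2.003 CPM in BAT, so the filter admitted them through SAT and their direction was set by that choice. Epcam too was at most 0.2003 CPM in BAT. Partner genes near 0 in BAT could pass the filter through SAT only, so the counts of partner genes higher in SAT are a description. Of 12 tested desmosome and cell envelope genes, 7 were higher, among them Perp (8.78) and Pkp3 (6.08), parts of the junctions that anchor keratins. Of 14 tested tight junction partners, 9 were higher, among them Ocln, the strand protein occludin (5.39), and Ildr1 (7.35), which acts where 3 cells meet. Endothelial genes went the other way, with 6 of 11 lower. Of all genes 21.8% were higher and 16.5% lower. Without SAT library 8 these counts were 19 of 19 epithelial, 10 of 10 milk, 11 of 13 desmosome and 13 of 16 tight junction genes higher and 9 of 11 endothelial genes lower, against 31.7% of all genes higher and 26.2% lower. Skeletal muscle genes varied widely in both depots, with a median summed level of 5091 CPM in SAT and 12054 CPM in BAT; their part in these results was not tested.

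Males held the same epithelial members in SAT, but not in every animal. Krt8 had a lowest, median and highest of 9.035, 189 and 597.6 CPM in male sham SAT, against 0.5901, 1.276 and 2.488 CPM in BAT. The ranges did not overlap, and the log2 fold change was 7.11 ± 1.03 (adjusted p = 0.000101). Krt18 was 176.7, 8.299, 48.19, 73.27, 0 and 124.6 CPM in male SAT libraries 1, 3, 5, 7, 9 and 11, while the 6 BAT libraries held 1 count in all, a ratio of 2505 with a counting interval of 449.7 to 98955. Krt18, with no count in SAT library 9, missed the low-count filter, as did most other epithelial members, and only 7 members were tested, of which Krt8 was called higher, as were 29.9% of all genes, and Krt80 lower (-1.43, adjusted p = 0.00406), as were 27.6%. That is 28.6% of the members tested against a background of 57.4% of all genes. Krt8, low in BAT, passed the filter through SAT, so its call is a description. Without the filter 21 members were called, against 46.5% of all genes, and with it 13 or 14 were called once any BAT library or SAT library 9 was left out, since the filter then asks for 1 library fewer.

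Milk genes broadly followed Krt18 across the male SAT libraries. Their summed level was 238536, 1692, 72680, 84702, 1.232 and 202886 CPM in male sham SAT libraries 1, 3, 5, 7, 9 and 11, and the order of these libraries by milk genes is also their order by Krt18. In the PCB 52 libraries 13, 15, 17, 19, 21 and 23 the sum was 74607, 872.3, 247157, 2233, 2.372 and 24159 CPM, with Krt18 at 208.9, 11.56, 156.6, 0.8929, 0 and 42.84 CPM. There the orders differed. Library 17 led by milk genes and library 13 by Krt18, and library 19 exceeded library 15 in milk genes but not in Krt18. Libraries 9 and 21, 1 sham and 1 PCB 52, thus lacked milk genes and Krt18 alike. Female SAT libraries were more even, with Krt18 at 124.9 to 216.4 CPM under PCB 52 and 138.1 to 223 CPM in sham, and milk gene sums of 3900 to 40069 and 5946 to 32503 CPM. The orders differed in female sham as well, where library 6 led by milk genes and library 2 by Krt18. How much mammary epithelium a piece of tissue held was not measured apart from these genes.

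In VAT the family was smaller and took another form. Krt8 averaged 30.76 ± 14.32 CPM in female sham VAT and 2.001 ± 1.391 CPM in BAT (SD, n = 6 each), a log2 fold change of 3.73 ± 0.46 (adjusted p = 4.12e-05). Krt19 had a lowest, median and highest of 5.146, 32.47 and 54.79 CPM in VAT and 0, 0.2553 and 1.308 CPM in BAT (5.85 ± 0.75, adjusted p = 5.7e-05). Cldn15, a pore-forming claudin known from the gut, had 3.709, 12.58 and 26.38 CPM in VAT and 1.206, 2.278 and 3.7 CPM in BAT (2.21 ± 0.52, adjusted p = 0.00355). VAT lay above BAT for all 3, though for Cldn15 the lowest VAT library barely passed the highest BAT library. Cldn3 had no count in any of the 12 female VAT libraries, where Krt5, Krt14 and Krt17 were at most 5.873, 1.855 and 0.2757 CPM.

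Of 9 members tested in female VAT against BAT, 6 were called, all higher, which is 66.7% against a background of 50.7% in either direction, 24.5% higher and 26.2% lower; their median was 1.23 against 0.04 over all genes. Members near 0 in BAT, such as Krt19, passed the filter through VAT alone, so neither figure is free of that choice. The others called were Cldn5 (1.23 ± 0.20, adjusted p = 0.000261), Cldn23 (2.16 ± 0.38, adjusted p = 0.000523) and Cldn1 (0.54 ± 0.19, adjusted p = 0.0328), the last at an adjusted p of 0.0801 with the rat as a block and not called without BAT library 4 or VAT library 4, 8 or 10. Without VAT libraries 4 and 8, the ones with Ucp1, 7 of 11 were called (63.6% against 49.6%), Cldn15 was 2.65 (adjusted p = 0.000294) and Cldn1 0.43 (adjusted p = 0.119). In males 6 of 9 were again called higher, 66.7% against a background of 54.6%, 29.2% higher and 25.4% lower. Krt19 was 6.79 ± 0.80 (adjusted p = 1.01e-05), Krt8 5.40 ± 0.86 (adjusted p = 0.000215; 4.26 without VAT library 11), Cldn1 1.90 ± 0.24 (adjusted p = 1.48e-05), Cldn5 1.38 ± 0.23 (adjusted p = 0.000159) and Cldn15 1.71 ± 0.42 (adjusted p = 0.00349). Cldn2 was 2.67 ± 0.84 (adjusted p = 0.0167), and 0.0709 with the block. Krt19 was at or near 0 in male BAT, and Krt8 and Cldn2 were low there. They passed the filter largely through VAT, so the male figures are not free of that choice either. Leaving out 1 library let 9 to 11 members be called in males when it was any BAT library or VAT library 1 or 3. Beside these members, 6 of 6 mesothelial genes tested in females were higher with a median of 6.35, and 4 of 5 in males with a median of 3.55. Msln was at most 1.595 CPM in BAT. Genes near 0 there passed the filter through VAT, so these counts are a description.

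Mesothelin (Msln), the surface protein that defines mesothelium, broadly tracked Cldn15 and Krt13 from library to library within VAT. Among female sham libraries 2, 4, 6, 8, 10 and 12, Msln was 84.18, 17.77, 337.5, 43.47, 327 and 377.1 CPM, and Cldn15 was 6.141, 3.709, 20.7, 3.792, 19.03 and 26.38 CPM. Libraries 6, 10 and 12 were thus high for both and libraries 2, 4 and 8 low for both. Libraries 4 and 8 were also the VAT libraries with 337.7 and 229.5 CPM of Ucp1, and the part of brown fat in their values was not tested. In male sham libraries 1, 3, 5, 7, 9 and 11 Msln was 289.5, 18.08, 20.77, 4.041, 88.85 and 96.77 CPM, with Cldn15 at 16.91, 3.315, 4.487, 4.992, 8.42 and 8.489 CPM. Krt13, a keratin best known from the lining of mouth and gullet, was 6.791, 0.904, 1.41, 0.2377, 2.468 and 2.624 CPM in the same 6 libraries. It was at most 0.8742 CPM in every SAT library and at most 0.2003 CPM in BAT.

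**Figure D3:**
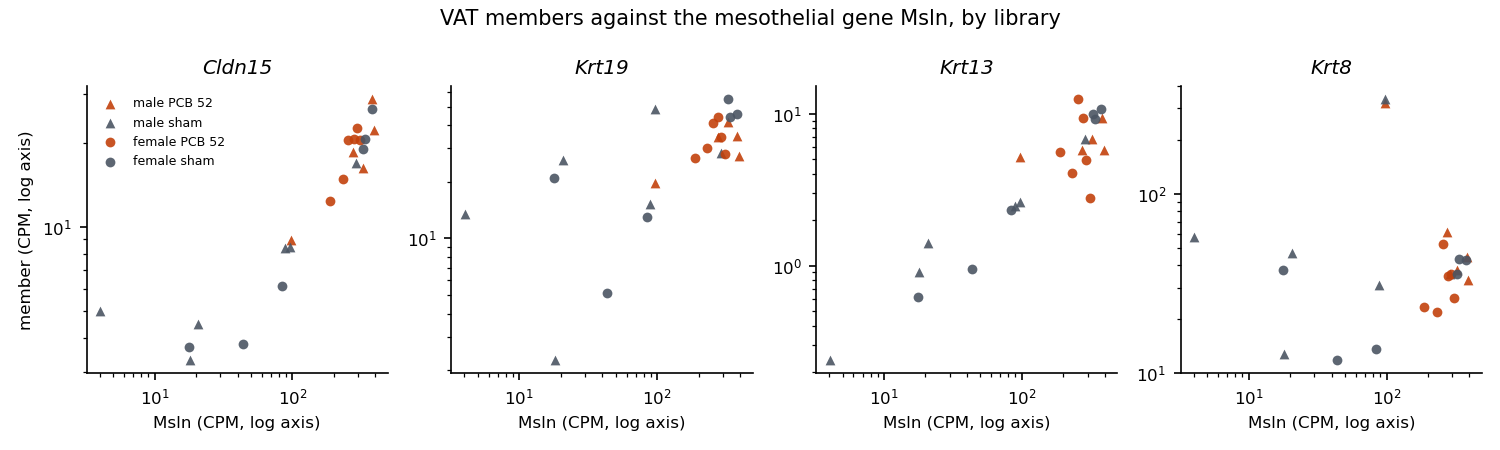
CPM of Cldn15, Krt19, Krt13 and Krt8 against CPM of Msln in the VAT libraries (both axes log), with triangles for males, circles for females and colour for treatment. Cldn15 and Krt13 tend to be higher where Msln is higher. Krt19 follows Msln less closely among male sham libraries. There library 7, with the least Msln, held 114 counts of Krt19, and library 3 held 15. For Krt8 the male libraries with 322.5 and 338.5 CPM lie apart from the rest.

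SAT and VAT were also compared directly. In female sham rats 20 members were tested and 16 called, 80% against a background of 30.7%, 13 higher in SAT (17.2% of all genes) and 3 lower (13.5%), with a median log2 fold change of 3.81 against 0.088 over all genes. Cldn3, Cldn7, Cldn8, Krt14, Krt17 and Krt23 were at or near 0 in VAT and passed the filter through SAT, which fixed their direction, so the share and the median are a description. Without SAT library 8 and VAT libraries 4 and 8, 19 of 22 were called against a background of 43.7%. Krt17 was 2091-fold higher (1 count in VAT, counting interval 375.2 to 82573), Cldn3 at least 2431-fold higher, and Cldn8, Krt14 and Cldn7 had log2 fold changes of 7.55, 7.50 and 7.34. Krt8 and Krt18, present in both depots, were 3.40 ± 0.44 (adjusted p = 0.000177) and 4.23 ± 0.56 (adjusted p = 0.000201). Lower in SAT were Cldn15 (-3.79 ± 0.73, adjusted p = 0.00233), Krt80 (-1.48 ± 0.52, adjusted p = 0.0485) and Cldn12 (-0.74 ± 0.20, adjusted p = 0.0138). Krt80 was not called without SAT library 2, 6, 10 or 12. The block, under which 16.8% of all genes were called, took away 4 calls of those 16: Krt19 (2.65, adjusted p = 0.0649), Krt10 (1.72, adjusted p = 0.18), Krt80 (-1.73, adjusted p = 0.0971) and Cldn12 (-0.76, adjusted p = 0.0743). Without SAT library 8, Krt10 was 1.28. Mesothelial genes were lower in SAT in 4 of 7 tested and epithelial genes higher in 17 of 18, and without those 3 libraries 5 of 7 and 18 of 19.

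In male sham rats 4 of 17 members tested were called, all lower in SAT than in VAT, 23.5% against a background of 11.9%, 6.9% higher and 4.96% lower. These were Cldn1 (-1.41 ± 0.27, adjusted p = 0.00808), Cldn5 (-1.76 ± 0.38, adjusted p = 0.0147), Cldn15 (-2.04 ± 0.45, adjusted p = 0.0155; -1.89 and 0.0576 with the block) and Cldn11 (-3.20 ± 0.77, adjusted p = 0.0222). Cldn11, low in most male SAT libraries, passed the filter largely through VAT. The members' median was 0.97, opposite in sign to the calls, and over all genes it was -0.014. The count depended on single libraries. With any 1 library left out it was 6 to 13, with the rat as a block 7, and without SAT library 9 it was 12. Male VAT sham library 11 held Krt8 at 338.5 CPM, Cldn3 at 170.6 CPM and Cldn23 at 146.5 CPM, against at most 57.41, 1.026 and 3.804 CPM in the other 5, and without it 13 members were called, against a background of 15%, among them Cldn3, Cldn4, Cldn7, Cldn8, Krt15, Krt17, Krt18, Krt23 and Krt5 as higher in SAT.

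Cldn5, the claudin that seals blood vessels, and Cldn12, a widely expressed claudin, were the only members that averaged at least 10 CPM in each of the 3 depots. In sham rats Cldn5 had a lowest, median and highest of 129, 175 and 311.3 CPM in male VAT and 65.54, 100 and 147.5 CPM in female VAT, and 48.83, 62.47 and 74.16 CPM in male BAT and 30.45, 35.41 and 54.95 CPM in female BAT. VAT exceeded BAT in both sexes without overlap. In SAT the sham levels were 12.78 to 91.85 CPM in males and 40.9 to 213.2 CPM in females, where the highest value is again library 8, in which Cdh5 is listed at 0. Cldn12 kept to a narrow range, from 27.68 to 54.01 CPM over all libraries of the 3 depots except female SAT sham library 8, which had 9.738 CPM.

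Skin and hair keratins appeared in single SAT libraries. Krt1, Krt10 and Krt77, keratins of the upper epidermis and sweat ducts, were 29.14, 88.06 and 45.34 CPM in female SAT PCB 52 library 18 and 15.69, 56.42 and 34.5 CPM in library 20. The other 4 libraries of that group had at most 0.8707 CPM of Krt1 and 8.682 to 11.2 CPM of Krt10. In sham, library 8 was the highest, with 5.004, 37.74 and 1.488 CPM. Male SAT PCB 52 library 15 held the inner root sheath keratins Krt71, Krt25 and Krt27 at 15.78, 11.02 and 3.672 CPM, and sham library 9 had 4.654, 2.19 and 1.78 CPM. Of the 63 members, 9 had their highest value in library 15 and 9 in male SAT PCB 52 library 19.

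Library 19 held a set of basal keratins that no other library of its group had at such levels. Krt14 was 2163 CPM there, Krt17 563 CPM, Krt5 443.8 CPM and Cldn1 681.7 CPM, against 0.5272 to 24.17 CPM of Krt14 and 1.153 to 9.18 CPM of Cldn1 in the other 5 male SAT PCB 52 libraries. Krt6c and Krt16, which skin makes on injury, were 47.32 and 42.26 CPM there and under 1 CPM in every other library of the series; Krt6c has near-identical copies, so its count is uncertain. Krt8, at 4.464 CPM, was the lowest of its group. The summed desmosome and cell envelope genes stood at 4361 CPM in library 19, against 303.7 to 695.2 CPM in the other 5 and 262.8 to 560.2 CPM in sham. The skin content of that tissue piece was not tested.

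Against sham, PCB 52 changed no member past the threshold with edgeR in any depot or sex, while DESeq2 called 1 member in VAT of each sex. In SAT, 20 members were tested in females and 19 in males with edgeR's quasi-likelihood test and none was called, against a background of 0% of 11824 and 0% of 11459 genes; at an unadjusted p under 0.05 there were 2 and 3 members, and 5.12% and 1.44% of all genes. DESeq2 called none in either. In females Krt8 ranged over 198.3 to 423.3 CPM under PCB 52 and 215 to 402.7 CPM in sham, log2 fold change -0.34 ± 0.33 (adjusted p = 0.894), and Krt18 was -0.45 ± 0.27 (adjusted p = 0.768). The groups overlapped throughout. The 3 smallest p-values were for Cldn5 (-1.39 ± 0.61), Cldn7 (-0.95 ± 0.42) and Krt23 (-0.66 ± 0.35), each at an adjusted p of 0.768, and without sham library 8 the Cldn5 value was -0.15 and the Cldn7 value -0.30.

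In male SAT the members with the smallest p rested on library 19. Krt14 had a lowest, median and highest of 0.5272, 13.9 and 2163 CPM under PCB 52 and 0.2738, 9.434 and 17.6 CPM in sham, with a log2 fold change of 5.35 ± 1.93. Krt17 was 4.40 ± 1.60 and Cldn1 4.37 ± 1.51, all 3 at an adjusted p of 1. Without library 19 they were 0.27, 0.48 and -0.18. Krt8 was -0.22 ± 1.20 and Krt18 -0.084 ± 1.41, with wide standard errors, and both groups held libraries with almost no epithelial signal beside libraries rich in it. Over both sexes Krt80 had the smallest p in SAT (1.23 ± 0.51, adjusted p = 0.994), and Krt14, at 2.43, became -0.17 without library 19. Krt80 was also highest in library 19, at 9.227 CPM, and its value ran from 0.69 to 1.39 with single libraries left out. The difference between the sexes' responses was 5.90 ± 1.86 for Krt14, 5.66 for Cldn1 and 5.19 for Krt17 (adjusted p = 0.754 each), and 0.81, 1.12 and 1.27 without that library.

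**Figure D4:**
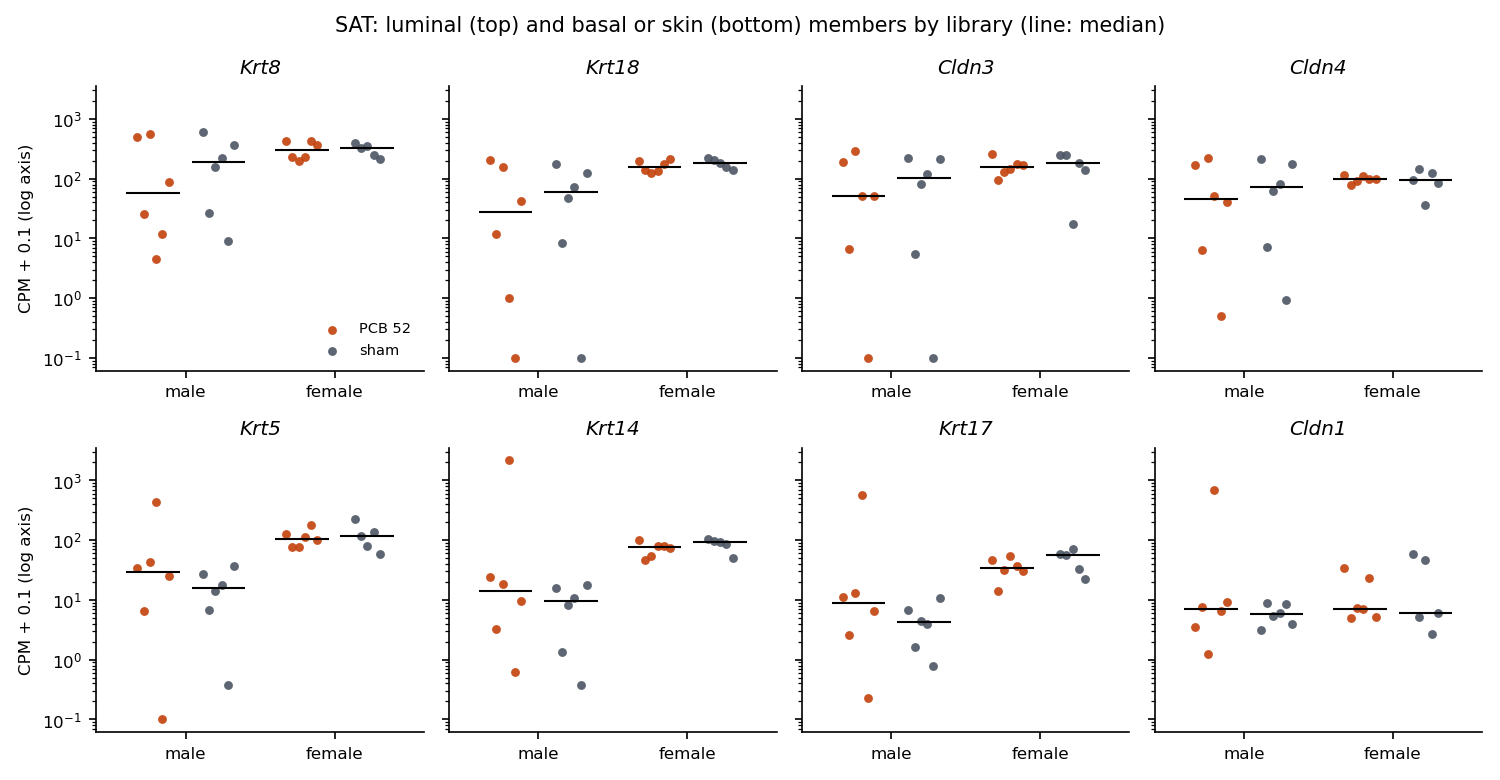
CPM + 0.1 (log axis) in SAT of Krt8, Krt18, Cldn3 and Cldn4 (top) and Krt5, Krt14, Krt17 and Cldn1 (bottom), PCB 52 beside sham within males and females, 1 point per library. The top row overlaps between treatments in both sexes, and in the bottom row male PCB 52 library 19 stands above all others, at 2163 CPM for Krt14.

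In VAT the leading members were claudins of males. Cldn11, which builds the tight junctions of myelin and of Sertoli cells, was 2.73, 0.7672, 0.5631, 0.5139 and 1.483 CPM in male PCB 52 libraries 13, 15, 17, 19 and 23, against 1.465, 8.136, 15, 28.77, 15.39 and 21.45 CPM in sham libraries 1, 3, 5, 7, 9 and 11. The 5 sham libraries other than library 1 were above every PCB 52 library, and library 1 was within the PCB 52 range. The log2 fold change was -3.67 ± 0.71, and the adjusted p was 0.747 over 11357 genes. Across alternatives the adjusted p ran from 1.4e-05 to 0.97, and the lowest, from DESeq2, was the one that passed the threshold, where 0.034% of all genes did.

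Cldn2, the pore claudin of leaky epithelia, was 0, 0.1279, 1.549, 0.8993 and 0.9439 CPM in those PCB 52 libraries and 0.2663, 0.6027, 17.82, 10.94, 6.388 and 12.35 CPM in sham. Its log2 fold change was -3.51 ± 1.08, and -3.18 without library 13, where it is listed at 0 as nearly all X-linked genes are. Cldn22 was 2.34, 1.79, 0.8447, 0.8993 and 2.023 CPM under PCB 52 and 1.198, 2.561, 5, 9.39, 4.646 and 3.55 CPM in sham (-1.53 ± 0.49). Both had an adjusted p of 0.747, and the groups overlapped, through sham libraries 1 and 3 for Cldn2 and library 1 for Cldn22.

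Cldn15 and Krt13 pointed the other way in male VAT. Cldn15 was 8.97, 16.24, 28.72, 22.22 and 18.61 CPM under PCB 52, against 16.91, 3.315, 4.487, 4.992, 8.42 and 8.489 CPM in sham (1.28 ± 0.42, adjusted p = 0.747). Krt13 was 5.2, 6.777, 9.291, 5.781 and 5.798 CPM under PCB 52 and 6.791, 0.904, 1.41, 0.2377, 2.468 and 2.624 CPM in sham (1.44 ± 0.56, adjusted p = 0.747). Sham library 1 reached the PCB 52 range in both, and it is also the sham library with the most Msln. Msln itself was 97.37, 325.5, 380.9, 392.2 and 274.7 CPM under PCB 52, and the summed mesothelial list had a lowest, median and highest of 306.5, 654.8 and 768 CPM under PCB 52 and 109.5, 197.9 and 625.1 CPM in sham. No mesothelial gene was called among 7 tested. The part of mesothelial content in the values of Cldn15, Krt13, Cldn11, Cldn2 and Cldn22 was not tested.

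**Figure D5:**
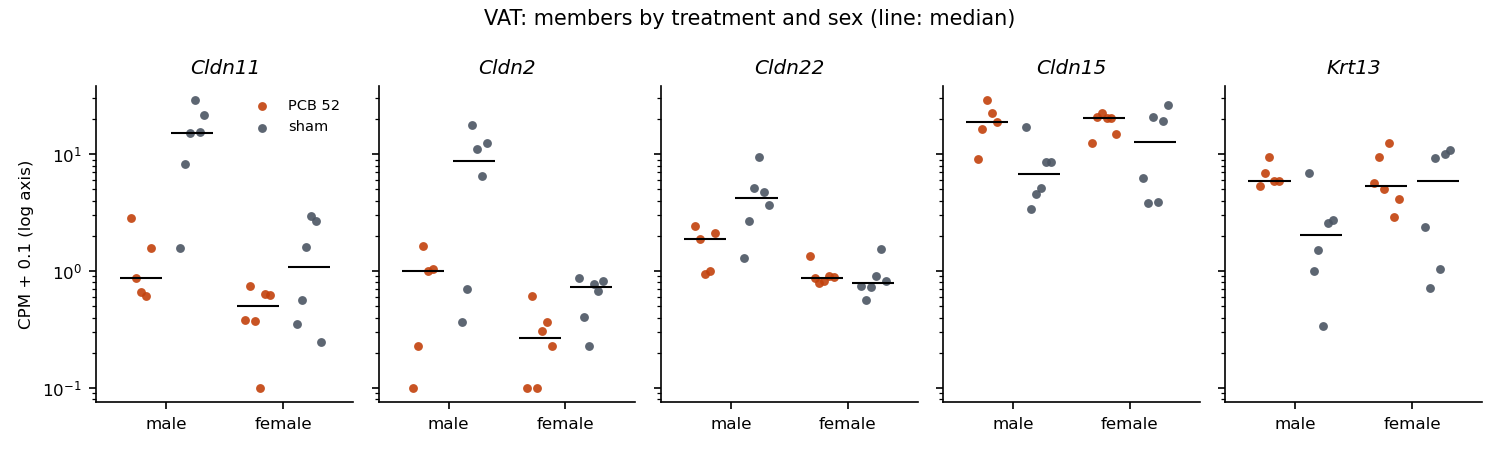
CPM + 0.1 (log axis) in VAT of Cldn11, Cldn2, Cldn22, Cldn15 and Krt13, PCB 52 beside sham within males and females, 1 point per library. In males Cldn11 and Cldn2 are lower and Cldn15 and Krt13 higher in most PCB 52 libraries, with sham library 1 among the PCB 52 values, and no difference passed the threshold with edgeR.

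Of the 18 members tested in male VAT, 5 had an unadjusted p under 0.05, the ones just given, as did 6.3% of all genes, and none was called, against a background of 0%. In females 12 were tested and none called with edgeR, against 0%, with 1 at an unadjusted p under 0.05, as had 9.57% of all genes. The smallest p there was for Krt18, with a lowest, median and highest of 2.738, 4.44 and 7.726 CPM under PCB 52 and 0.8956, 11.58 and 15.46 CPM in sham (-1.02 ± 0.46, adjusted p = 0.52). Cldn23 was 0.50 (adjusted p = 0.577) and Krt10 0.46 (adjusted p = 0.637). DESeq2, which called 0.352% of all genes in females, called Cldn4 (-3.92, adjusted p = 0.033), which edgeR's filter had left out; it was 0 to 0.3091 CPM under PCB 52 and 0 to 5.873 CPM in sham. Over both sexes Cldn11 was -2.91 ± 0.57 (adjusted p = 0.13), with a DESeq2 value of -2.78 (adjusted p = 0.00062, where 0.0737% of all genes were called), and it was also called by edgeR once male sham library 1 was left out (-3.04, adjusted p = 0.0394). Cldn2 was -2.78 ± 0.70 (adjusted p = 0.475; -2.52 and 0.241 without library 13) and Cldn15 0.89 (adjusted p = 0.604). The difference between the sexes' responses had its smallest p for Cldn22 (-1.67 ± 0.59, adjusted p = 0.405), Krt15 (6.02) and Cldn4 (3.63), none of them called.

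A few male VAT libraries had glandular keratins and claudins well above the rest. PCB 52 library 13 had Krt8 at 322.5 CPM, Cldn3 at 145.1 CPM and Cldn23 at 131 CPM, PCB 52 library 23 had 61.62, 20.5 and 26.02 CPM, and sham library 11 had 338.5, 170.6 and 146.5 CPM. In the remaining 3 PCB 52 libraries Cldn3 was at most 0.1285 CPM and in the remaining 5 sham libraries at most 1.026 CPM. The same 3 libraries were the ones with male reproductive tract genes, whose sums were 118.8, 390.9 and 237.7 CPM there and at most 0.5128 CPM in the other male VAT libraries, and Epcam was 75.66, 9.304 and 97.24 CPM. Their part in the levels of Krt8, Cldn3 and Cldn23 was not tested. Milk genes summed to at most 8.97 CPM in male VAT PCB 52 and 7.409 CPM in sham.

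BAT gave little to compare. Of 6 members tested in each sex none was called with edgeR or DESeq2, against a background of 0% in both with edgeR, and none had an unadjusted p under 0.05. The 2 keratins and 4 claudins tested were all that passed the filter. Cldn5 had a lowest, median and highest of 23.39, 31.03 and 46.69 CPM in female PCB 52 rats and 30.45, 35.41 and 54.95 CPM in female sham rats (-0.21, adjusted p = 0.999), and 46.49, 51.34 and 73.85 CPM in male PCB 52 rats and 48.83, 62.47 and 74.16 CPM in male sham rats (-0.16). Cldn15 had the smallest p in females (-0.60 ± 0.31) and was 0.38 in males, with Krt80 at -0.37. Over both sexes 7 members were tested and none called, against 0.00906% of all genes, and Cldn5 was -0.18, Krt80 -0.40 and Krt8 0.45. The difference between the sexes' responses was 0.98 for Cldn15, -0.29 for Cldn1 and -0.042 for Cldn12.

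Sham males and females differed most in VAT. Of 14 members tested there, 5 were called, 4 higher and 1 lower in males, 35.7% against a background of 11.5%, 6.19% higher and 5.34% lower; without female libraries 4 and 8 and male library 11, 3 of 15 were called against 5.98%. Cldn11 was 1.465 to 28.77 CPM in males and 0.1458 to 2.844 CPM in females (3.45 ± 0.69, adjusted p = 0.00714), and Cldn22 was 1.198 to 9.39 CPM in males and 0.4637 to 1.431 CPM in females (2.41 ± 0.46, adjusted p = 0.00567). Both were low in females and passed the filter largely through the male libraries. Their direction and the share of members called are therefore not free of that choice. Cldn1 ran from 12.78 to 28.25 CPM in males and 4.227 to 8.655 CPM in females with no overlap (1.21 ± 0.21, adjusted p = 0.00367). Cldn5 was 0.88 ± 0.27 (adjusted p = 0.0477) and Cldn12 -0.42 ± 0.12 (adjusted p = 0.0367), but the call of Cldn5 was lost without female library 2, 4, 6, 8 or 12 or male library 3, 5, 7 or 9, and that of Cldn12 without female library 2, 4, 6, 8 or 12 or male library 3, 5 or 11. In SAT 1 of 20 members was called, 5% against 1.09% (0.344% higher, 0.748% lower), and without female library 8 it was 1 of 22, 4.55% against 4.78%, about the background share. The member called was Krt17, at 4.644 ± 3.63 CPM in males and 48.18 ± 20.13 CPM in females (-3.42 ± 0.68, adjusted p = 0.0375), with -2.85 and 0.0304 without female library 8 and a call lost without female library 2, 6 or 10 or male library 1, 3, 5, 7 or 9. Krt14 was -3.22 (adjusted p = 0.0714) and Krt15 -4.14 (adjusted p = 0.0733). In BAT none of 6 was called with edgeR, against 0.0652%, where DESeq2 called Cldn5 (0.72, adjusted p = 0.00135, against 0.487% of all genes); edgeR's value for it was 0.73 ± 0.14 (adjusted p = 0.101), and Krt80 was 0.95.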

How the data were processed

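The labels give 70 bulk RNA-seq libraries from about 100 mg of tissue each, with RNA of an integrity number under 8 left out and mRNA enriched by poly(A) capture or rRNA removal. The submitters' processing notes name FastQC, HISAT2 and, as genome build, rn6. Their versions, the counting program, the annotation and the use of strand were not given in the sources used here. Without strand, overlapping genes and near-identical copies have uncertain counts. The authors deposited raw counts per gene in 6 tables, 1 for each sex and depot. The female VAT table carries 5 spreadsheet lines under its genes that are not all whole numbers, so its unit as deposited could be read as estimated counts. Those lines were left out, and its gene values were taken as counts, as in the other tables. The gene lines of that table are whole, needed no rounding and entered the same fits as the other tables. Gene numbers were named from a RefSeq table of GRCr8, which matched 15230 of them and left 89 unmatched.

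Members and gene lists were chosen with earlier results of these data known. Named with values were 19 of 21 preset genes that the tables hold, members averaging at least 10 CPM in a depot, and in each comparison up to 5 called members in each direction or the 3 of smallest p; a few others were named after their values were seen. The deposited counts went into edgeR 4.0.16 under R 4.3.3 (default expression filter, TMM, robust quasi-likelihood F test) over all genes, with Benjamini-Hochberg adjustment at 0.05. Fold changes are log2, with the standard error taken as the size of the fold change over the root of F. DESeq2 1.42.0, limma 3.58.1 (voom), other scaling, no filter and fits without single libraries or without the libraries that stood apart were alternatives. The last were female BAT PCB 52 library 24, female SAT sham library 8, male SAT PCB 52 library 19, female VAT sham libraries 4 and 8, male VAT sham library 11 and male VAT PCB 52 libraries 13 and 23. In simulated counts for female SAT under PCB 52, 6.06% of genes changed by a log2 fold of 1 and 56.57% of those changed by 2 were recovered, and in male SAT 18.37% and 75.26%.

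The titles number 24 rats, and a number has the same sex and treatment wherever it occurs. Libraries sharing a number were therefore taken to be 1 rat, which the labels do not state. As a check, 68 pairs of libraries with a shared number had a median correlation of 0.087 in their departure from the group mean, and 340 pairs without one had -0.022. The rat was a block in an alternative fit of the depot comparisons. No library repeated another of its group: over 170 such pairs chi-square divided by the number of genes was at least 7.33.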

Additional observations from a re-analysis of the deposited data

Results flagged for a closer look

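In groups of 5 or 6 libraries whose highest value reached 10 CPM, the highest or lowest library was compared with the rest by Dixon's gap criterion. Of 129 such combinations of member and group, 40 had a library apart from the others. The criterion's rate of 1 in 20 is for normal values in groups not chosen by their highest value. It does not apply to these CPM values, so the 40 are a description. All values that follow are CPM and the highest of their group unless said otherwise.

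Male VAT holds 22 of the 40. In PCB 52 library 13, Krt8 was 322.5, Cldn3 145.1, Cldn23 131, Krt18 73.06, Cldn7 53.17, Cldn8 27.95, Cldn1 26.52, Cldn4 24.31, Krt15 21.45, Krt5 16.77 and Krt14 10.92. In sham library 11, Krt8 was 338.5, Cldn3 170.6, Cldn23 146.5, Krt18 92.3, Cldn7 63.74, Cldn4 36.27, Krt15 35.81, Cldn8 33.49, Krt5 33.34, Krt14 23.61 and Krt10 11.11. Both libraries carried male reproductive tract genes, with summed levels of 118.8 and 237.7 CPM, and the part of these in the values was not tested.

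Male SAT PCB 52 library 19 had Krt14 at 2163, Cldn1 at 681.7, Krt17 at 563, Krt5 at 443.8, Krt6c at 47.32, Krt16 at 42.26 and Krt15 at 41.67. Library 15 of that group had the hair follicle keratins Krt71 at 15.78 and Krt25 at 11.02, and library 13 had Krt23 at 44.11. Male SAT sham library 11 had Krt15 at 28.44.

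Female SAT sham library 8 had Cldn5 at 213.2, Krt10 at 37.74 and, as the lowest of its group, Cldn12 at 9.738. Female SAT PCB 52 library 22 had Cldn6 at 15.8. In female VAT, PCB 52 library 18 had the lowest Cldn5 at 62.72, PCB 52 library 24 had Cldn23 at 10.17, and sham library 4 had Krt15 at 10.97.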

How the results depend on the processing

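Counts of called members held within 1.5 times under RLE scaling in every comparison. In SAT against BAT and SAT against VAT of female sham rats they were 14 to 18 and 15 to 19 without single libraries. DESeq2 called 1 member where edgeR called 0 for PCB 52 in female VAT, male VAT and VAT over both sexes, for the VAT interaction of sex and treatment (Cldn8, a fitted value of 18.30 that is no bound, adjusted p = 0.0448, where 0.121% of all genes were called) and for sex in BAT. In VAT against BAT of females no filter and DESeq2 gave 15 each against 6. In males they gave 21 and 20 against 2 for SAT against BAT, 23 and 18 against 6 for VAT against BAT, and 9 and 15 against 4 for SAT against VAT, where leaving out the libraries that stood apart gave 13 and the rat as a replicate block 7. For sex in SAT, DESeq2 gave 4 and voom 2 against 1, and in VAT DESeq2 gave 9 and voom and the fit without the libraries that stood apart 3 each, against 5. Leaving out single libraries gave 2 to 14 for SAT against BAT, 6 to 11 for VAT against BAT and 6 to 13 for SAT against VAT in males, 0 to 1 for PCB 52 in VAT over both sexes, 0 to 1 for sex in BAT, 0 to 1 in SAT and 2 to 5 in VAT. The cause was not tested beyond the number of libraries the filter asks for.

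Of 57 calls of single members, 40 held in every setting run and 17 were lost in at least 1. With the rat as a replicate block in the depot comparisons, 11 of these calls were lost, 39 held and 1, Cldn23 in SAT against BAT of females, missed the filter, while further members were called in VAT against BAT and SAT against VAT of males. Reversed were Cldn1 for PCB 52 in male SAT (-0.18 without library 19, the lowest of a range to 4.66), Krt14 in SAT over both sexes (-0.17 without library 19, with a range to 2.90) and the Cldn12 interaction in BAT (0.013, 0.016 and 0.00078 without female PCB 52 library 22, male sham library 1 and male PCB 52 library 15, against -0.042, with a lowest value of -0.13). Depth limits the lowest members, since a count of 3 is up to 0.652 CPM.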
